A study of Mus musculus with 19 samples.

Results

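The expression of 8 acute-phase genes was followed through mammary glands and mammary tumors of the mouse: the serum amyloid A genes *Saa1*, *Saa2* and *Saa3*, and *Lcn2*, *Orm1*, *Hp*, *C3* and *Cp*. They are the rows of the deposited table whose Ensembl identifiers map to these 8 symbols, out of 46078 genes. The study had picked *Saa1* and *Saa2* from its comparison of glands with and without mutant p53 in fibroblasts, and the other genes were added with results of these data known. For this reason no p-value is given for a member in that comparison, and its counts of calls stand only beside the share over all genes. RNA-seq was done on bulk tissue of 19 samples. MG-WT were 3 mammary glands of age-matched wild-type mice. MG-N were 4 glands of tumor-bearing mice without a malignant lesion in the gland, of which replicate 1 carried MMTV-neu and Fsp-Cre and replicates 2, 3 and 4 carried MMTV-neu and the p53wm-R172H/+ allele without Cre. MG-NP were 4 such glands and T-NP 4 tumors, all of MMTV-neu;p53wm-R172H/+;Fsp-Cre mice. T-N were 4 tumors of MMTV-neu;Fsp-Cre mice, so T-N tumors and 3 of the 4 MG-N glands also differ in carrying Fsp-Cre or the conditional allele. MMTV-neu expresses ERBB2 in mammary epithelium and Fsp-Cre is active in fibroblasts, where it turns the conditional *Trp53* allele into one for the R172H protein. The MMTV-neu mice were on a mixed FVB/C57/BALB/c background, and the paper gives none for the wild-type mice. In bulk tissue, fewer cells of a type and less RNA per cell cannot be told apart.

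Acute-phase proteins are secreted proteins whose blood levels change during inflammation. The liver is their main source, where interleukin 6 acting through STAT3, interleukin 1 acting through NF-kB, and C/EBP factors switch on their genes. Fat tissue, macrophages and glandular epithelium also express several of them, and serum amyloid A3 and lipocalin 2 are well known outside the liver in mice.

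The values are normalized counts, which are read counts divided by 1 size factor per library. The 16 libraries from MMTV-neu mice held 20899152 to 27262440 reads on genes (median 23489454) and the 3 MG-WT libraries 54677315 to 62645459 (median 54753948), so 1 read in MG-WT corresponds to a lower normalized count. The MG-WT glands also stood apart in tissue makeup. The summed normalized counts of 10 white adipocyte markers were 7685 to 9873 in MG-WT, 324980 to 438450 in MG-N and 162722 to 375573 in MG-NP. Adipocyte transcripts were therefore scarce in glands that were labelled as whole mammary gland. The summed counts of 9 luminal epithelial markers were 79946 to 96145 in MG-WT and 12295 to 30688 over the MG-N and MG-NP glands. Skeletal muscle transcripts reached 12810 to 3071490 summed normalized counts in MG-NP, against 390 to 18837 in MG-N. Wild-type glands had 165 to 194. Depth, tissue makeup and any difference in strain background cannot be told apart from genotype in comparisons with MG-WT.

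*Saa1*, *Saa2* and *Saa3* lie together on chromosome 7 of GRCm38. *Saa1* (ENSMUSG00000074115) spans chr7:46740497-46742980 on the minus strand, *Saa2* (ENSMUSG00000057465) chr7:46751790-46754313 on the plus strand and *Saa3* (ENSMUSG00000040026) chr7:46711998-46715700 on the minus strand. The proteins of *Saa1* and *Saa2* are carried on high-density lipoprotein and come mainly from the liver, whereas *Saa3* is the form made by adipocytes and macrophages in mice. The sequences before their starts are shown because *Saa1* and *Saa2* moved together across the libraries. They are from RefSeq (GRCm38.p6), 5′ to 3′ on the strand of the gene, and have matches to the C/EBP core motif TTGCNNAA, on either strand, in capitals.
Saa1, chr7:46742981-46743230, minus strand: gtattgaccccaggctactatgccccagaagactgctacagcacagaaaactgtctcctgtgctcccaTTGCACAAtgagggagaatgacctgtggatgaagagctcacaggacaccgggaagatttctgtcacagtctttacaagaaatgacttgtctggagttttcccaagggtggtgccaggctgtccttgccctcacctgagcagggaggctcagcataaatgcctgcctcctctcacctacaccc
Saa2, chr7:46751583-46751789, plus strand: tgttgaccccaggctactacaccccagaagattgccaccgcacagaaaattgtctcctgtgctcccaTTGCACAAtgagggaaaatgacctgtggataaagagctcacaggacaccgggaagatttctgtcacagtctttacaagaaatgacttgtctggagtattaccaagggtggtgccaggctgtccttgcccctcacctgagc
Saa3, chr7:46715701-46715926, minus strand: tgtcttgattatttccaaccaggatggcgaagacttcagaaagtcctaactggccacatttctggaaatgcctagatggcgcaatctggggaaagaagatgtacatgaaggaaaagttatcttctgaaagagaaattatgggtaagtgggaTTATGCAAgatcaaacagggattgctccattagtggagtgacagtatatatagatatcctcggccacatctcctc
The stretches of *Saa2* and *Saa3* are cut where the gene begins in GENCODE, ahead of the RefSeq start from which positions are counted here. *Saa1* and *Saa2* were identical at 94.8% of aligned positions over the 250 bases before the RefSeq start, and *Saa1* and *Saa3* shared 52.2%. The C/EBP match was TTGCACAA in both *Saa1* (bases -182 to -175 from the start) and *Saa2* (bases -183 to -176), and TTATGCAA at bases -99 to -92 in *Saa3*. The same search found a match in *Lcn2* (bases -216 to -209), in *C3* (bases -45 to -38) and before the second of the *Cp* starts (bases -70 to -63), and 9.56% of 32851 RefSeq promoters hold one. Neither the STAT core TTCNNNGAA nor the NF-kB consensus, found in 7.02% and 7.25% of promoters, was matched in these windows on either strand. *Orm1* and *Hp* had no entry.

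The coding sequences of *Saa1* and *Saa2* were identical at 348 of 366 bases (95.1%), and 18.5% of the 75-base windows of *Saa1* transcripts were found unchanged in *Saa2* transcripts. How the authors' counting placed such reads is not stated, so the split between both genes is uncertain and their sum is given as well. *Saa3* shared none of its windows with either.

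*Saa1* was at or near 0 in wild-type glands, low in MG-N, and varied over more than an order of magnitude in the other groups. Each MG-WT library had 1 read of *Saa1* (0.426, 0.488 and 0.517 normalized counts in replicates 1 to 3). In MG-N replicates 1 to 4 its normalized count was 2.55, 2.30, 3.76 and 5.15. In MG-NP it was 55.3, 21.4, 201.5 and 9.04. All MG-NP glands were above all MG-N glands, and MG-NP replicate 3 was by far the highest. In T-N tumors the values were 223, 1.05, 12.1 and 0, and in T-NP tumors 238, 73.2, 15.6 and 11.2. A single T-N tumor and a single T-NP tumor, both replicate 1, thus held most of the *Saa1* reads of their groups, and the remaining T-N tumors overlapped with MG-N glands. By median, the order was T-NP (44.4), MG-NP (38.4), T-N (6.59), MG-N (3.15) and MG-WT (0.488), and only the last neighbours, MG-N and MG-WT, did not overlap.

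*Saa2* showed a like pattern at slightly lower counts. Its normalized count was 0, 0.976 and 0.517 in MG-WT, which is at most 2 reads, and 3.82, 3.45, 0.939 and 0 in MG-N. In MG-NP it was 23.8, 8.56, 154 and 1.29, with replicate 4 inside the MG-N range. The T-N tumors had 107, 1.05, 14.1 and 3.50. The T-NP tumors had 240, 35.4, 22.1 and 8.74. The libraries that were highest for *Saa1* in MG-NP, T-N and T-NP were also highest for *Saa2*. After subtracting group means, the log2 values of both genes had a Pearson correlation of 0.866 across the 19 samples and of 0.852 without MG-NP replicate 3, with part of the sequence shared between both genes. Neighbours in the order of the group medians all overlapped for *Saa2*.

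**Figure D1:**
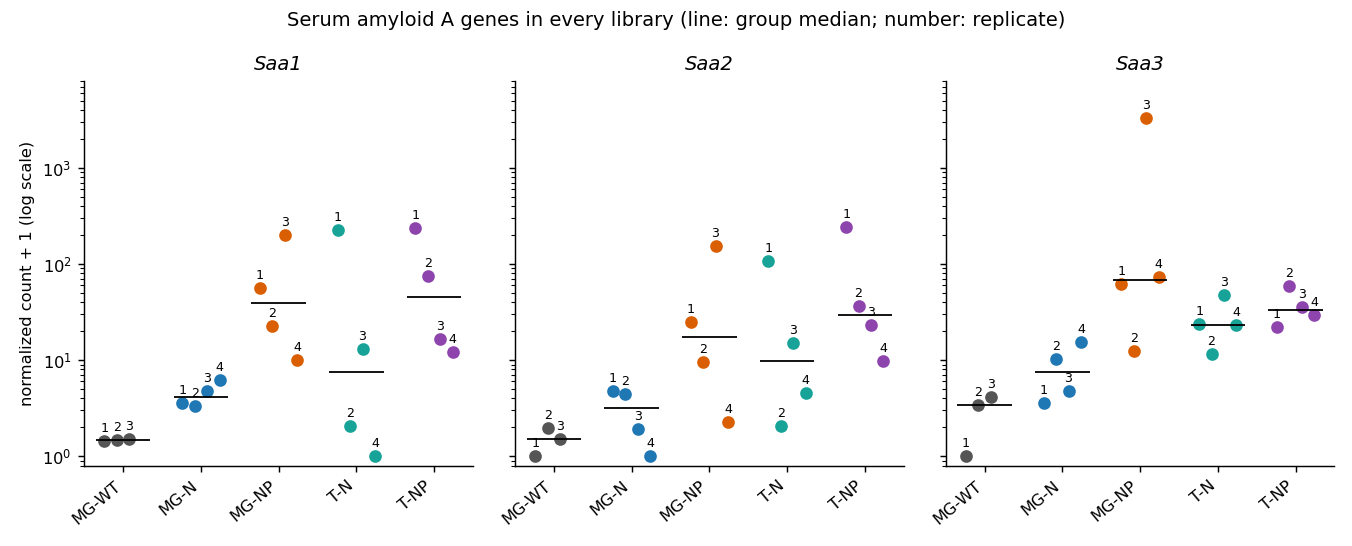
Normalized count + 1 on a log scale for *Saa1*, *Saa2* and *Saa3* in each of the 19 libraries, with the replicate number beside each point and a line at the group median. MG-NP replicate 3 is the highest MG-NP point for all 3 genes, at 201.5, 154 and 3287 normalized counts, and replicate 1 is the highest tumor of each genotype for *Saa1* and *Saa2*.

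The share of *Saa1* among reads of *Saa1* and *Saa2* could be set only where reads were many. It was 56.7% in MG-NP replicate 3 (328 reads, 95% Wilson interval 51.3% to 62.0%), 69.9% in MG-NP replicate 1 (83 reads, 59.3% to 78.7%) and 67.6% in T-N replicate 1 (290 reads, 62.0% to 72.7%). In T-NP replicate 1 it was 49.8% (426 reads, 45.0% to 54.5%), below the interval of T-N replicate 1. In T-NP replicate 2 it was 67.4% (89 reads, 57.1% to 76.3%), close to T-N replicate 1. In MG-N, with 5 reads of both genes together in each library, the intervals ran from 11.8% at the lowest to 100% at the highest. The shares in T-N replicate 1 and T-NP replicate 1 thus differed by more than counting error, and so did those of T-NP replicates 1 and 2. The intervals cover counting error only.

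**Figure D2:**
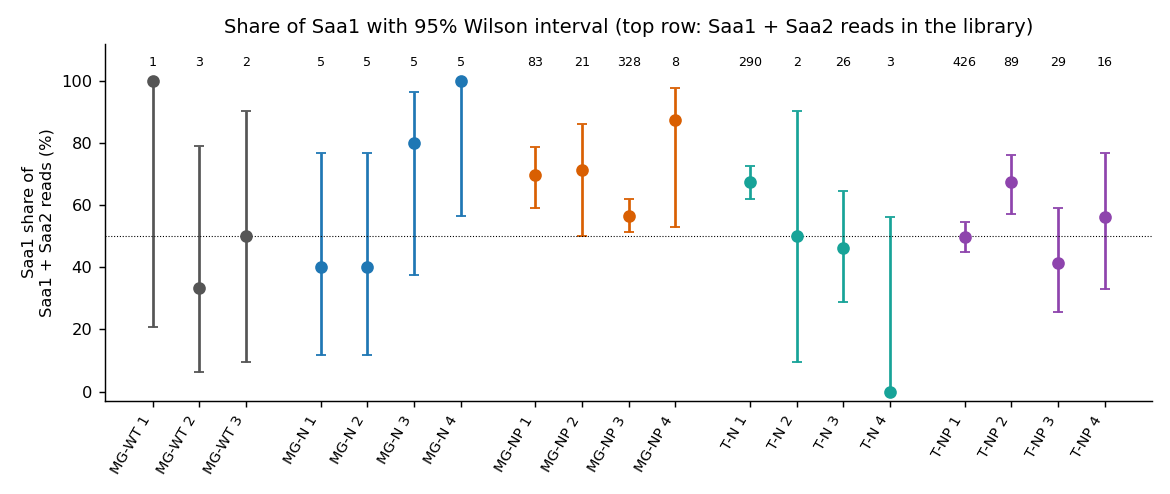
Share of *Saa1* among the reads of *Saa1* and *Saa2* in percent, per library, with the 95% Wilson interval as bars and the number of reads at the top. Narrow intervals are seen only in the libraries with 83 reads or more, where the share lies between 49.8% and 69.9%.

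*Saa3* had its highest value in the series in a single gland. It was listed at 0, 2.44 and 3.10 normalized counts in MG-WT and at 2.55, 9.19, 3.76 and 14.4 in MG-N. In MG-NP it was 61.0, 11.4, 3287 and 72.3, so that replicate 3 had 3035 reads and the other 3 glands 8 to 64. Replicate 2 of MG-NP lay within the MG-N range. In tumors the spread was small, with 22.7, 10.5, 46.5 and 22.2 in T-N and 21.3, 58.6, 35.1 and 28.7 in T-NP. All T-NP tumors were above all MG-N glands for *Saa3*, and 3 of 4 T-N tumors were.

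Between the glands with and without mutant p53 in fibroblasts, *Saa1* had a mean of 71.8 for MG-NP and of 3.44 for MG-N, a ratio of 20.9, and counting error alone gave an interval of 12.6 to 41.7 for the ratio of read rates (21.9). For *Saa2* the means were 46.9 and 2.05, a ratio of 22.8. For *Saa3* they were 858 and 7.48, a ratio of 115. Without MG-NP replicate 3, these ratios were 8.32, 5.47 and 6.45. The sum of *Saa1* and *Saa2* was 79.2, 30.0, 355 and 10.3 in MG-NP replicates 1 to 4 and 4.70 to 6.37 in MG-N, with no overlap. These glands are those in which *Saa1* and *Saa2* were picked by the study, so their height in MG-NP is what the choice used. Of the other members, *Orm1* was lower in all 4 MG-NP glands than in any MG-N gland, with a difference of -2.01 in mean log2 value, or -1.30 without MG-NP replicate 1. White adipocyte sums, given above, were lower in 3 MG-NP glands than in any MG-N gland. The sums of 9 fibroblast markers overlapped, at 62798 to 145496 in MG-NP and 132321 to 469260 in MG-N. By the mean log2 level of these markers the groups did not overlap (11.34 to 11.84 and 11.98 to 13.18). The part of adipocytes and fibroblasts in these differences was not tested. *Lcn2*, *Hp*, *C3* and *Cp* overlapped between the groups, with differences of 0.09, -0.30, -0.00158 and -0.33. Groups did not overlap for 6.21% of all genes tested in this comparison. Of the 6 members that passed the filter on low values, which *Saa1* and *Saa2* did not, 0 were called by limma, and 0% of the 18563 genes tested were. At an unadjusted p-value under 0.05 there were 2 such members, and edgeR and DESeq2 on the recovered reads called 0 members, with no adjusted p from DESeq2 for *Saa3* and *Lcn2*. Nothing is read from these counts.

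MG-NP replicate 3 differed from the other MG-NP glands in more than the serum amyloids. It had the most B and T cell transcripts of the series, with 12682 summed normalized counts of 8 markers against 8021, 408 and 2740 in MG-NP replicates 1, 2 and 4 and 382 to 6946 in MG-N. It also had the fewest skeletal muscle transcripts of its group and the highest sums of macrophage (34669 against 17053 to 31950), fibroblast (145496 against 62798 to 85340) and milk protein transcripts (103282 against 4915 to 55691). Macrophage sums in MG-N, where *Saa3* was low, were 24448 to 50293. The part of these cell types in the *Saa3* level was not tested.

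*Lcn2* (ENSMUSG00000026822, chr2:32384633-32388252), whose protein lipocalin 2 binds bacterial iron carriers, was the member that rose most in tumors. In MG-WT its normalized count was 8198, 8265 and 7071. In MG-N it was 17915, 1319, 2720 and 1618, and in MG-NP 4039, 5655, 5132 and 1148. All MG-NP glands lay below all MG-WT glands, while MG-N replicate 1 lay above them. In T-N tumors the values were 182776, 163645, 172453 and 100264, and in T-NP tumors 129301, 134524, 120505 and 213098. Every tumor was above every gland. This put between 0.365% and 0.761% of all reads of a tumor on *Lcn2* alone. The log2 fold change was 5.56 (SE 0.74, adjusted p = 5.18e-04) in T-N against MG-N and 5.42 (SE 0.48, adjusted p = 5.46e-05) in T-NP against MG-NP, by limma with Benjamini-Hochberg adjustment.

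Against wild-type glands, *Lcn2* was lower by a smaller amount that did not pass with all libraries. It was -1.29 on the log2 scale in MG-N (SE 0.80, adjusted p = 0.196, limma) and -1.20 in MG-NP (SE 0.53, adjusted p = 0.0981, limma), and neither passed. Without MG-N replicate 1 it was -2.12 in MG-N and passed (adjusted p = 5.44e-04, limma). That gland, the only MG-N gland with Fsp-Cre, also had 184024 summed normalized counts of 7 milk protein genes, against 2685 to 12334 in the other MG-N glands.

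Luminal epithelial markers moved with *Lcn2* between glands and tumors. Their sum was 97350 to 180867 in T-N and 101430 to 138261 in T-NP, and 7 of the 9 markers were called higher and 2 lower in each tumor comparison. Over all genes, 35.1% were called in T-N against MG-N and 38.7% in T-NP against MG-NP. MG-WT glands, with 79946 to 96145, came close to the tumors in these markers and had *Lcn2* at 7071 to 8265. Neutrophils, which store lipocalin 2 in granules, were followed with 8 markers, and these summed to 542 to 7468 in the tumors and 2700 to 27216 in the glands of tumor-bearing mice. Most of the highest sums was *Ltf*, the lactoferrin gene that mammary epithelium also expresses, with 26762 of 27216 in MG-N replicate 1 and 7360 of 7468 in T-NP replicate 2. *Ly6g*, a defining neutrophil marker, was at 0 in all T-N tumors and at 0 to 2.24 in T-NP, and *Ngp* was at most 2.33 in any tumor. *Elane*, *Mpo* and *Camp* were at most 1.01, 2.02 and 1.14 there. *Csf3r* and *Cxcr2* of the same list were present in every tumor, at 62.8 to 198 and 26.8 to 87.5 normalized counts. The parts of luminal epithelium and of neutrophils in the *Lcn2* level were not tested.

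*Orm1* (ENSMUSG00000039196, chr4:63344560-63348163), which encodes the plasma glycoprotein orosomucoid 1, was abundant in the glands of tumor-bearing mice and nearly absent elsewhere. In MG-WT it had 1.71, 1.95 and 2.58 normalized counts, which were 4 to 5 reads. In MG-N the values were 2223, 1855, 2585 and 1346, and in MG-NP 110, 1048, 804 and 588. In T-N tumors they were 10.2, 2.11, 45.4 and 8.17, and in T-NP tumors 5.61, 8.54, 9.09 and 6.24. The groups MG-N, MG-NP, tumors and MG-WT did not overlap with each other, except that T-N replicate 2 fell within the MG-WT range. *Orm1* reached the filter on low values only through the MG-N or MG-NP glands, so its log2 differences are given without a test. Against MG-WT it had the largest of the members, 9.31 in MG-N (SE 0.26) and 7.31 in MG-NP (SE 0.74). With a covariate for skeletal muscle the latter was 7.29 and no longer called. From glands to tumors it changed by -7.46 for T-N (SE 0.71) and -5.88 for T-NP (SE 0.65). *Orm2* and *Orm3*, its neighbouring paralogs, had 12.6 to 24.4 and 58.6 to 93.9 normalized counts in MG-N and at most 3.36 and 6.06 in the tumors. The coding sequence of *Orm2* is 89.9% identical to that of *Orm1*, so reads could have been placed on either.

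*Hp* (ENSMUSG00000031722, chr8:109575128-109579172), which encodes the hemoglobin-binding protein haptoglobin, followed *Orm1* with a higher level in wild-type glands. Its normalized count was 3242, 901 and 2694 in MG-WT. MG-N glands had 12047, 9351, 6107 and 7248 and MG-NP glands 3765, 9504, 5451 and 11154, above every MG-WT gland. Tumors had 778, 46.4, 1103 and 354 in T-N and 344, 794, 371 and 250 in T-NP. All tumors were below all MG-N and MG-NP glands, and T-N replicate 3 reached the lowest MG-WT gland. The log2 fold change was 2.08 in MG-N against MG-WT (SE 0.43, adjusted p = 0.00383, limma) and 1.78 in MG-NP against MG-WT (SE 0.54, adjusted p = 0.0297, limma). The latter was not past the threshold without MG-WT replicate 2 or 3 or MG-NP replicate 2 or 4 (adjusted p = 0.0558 to 0.0844, limma). Nor did it pass with the replicate number as a block (adjusted p = 0.124, limma) or all 5 groups in 1 fit (0.0720). With the skeletal muscle covariate the adjusted p was 0.795 (limma), but that covariate cannot be told apart from the group, so nothing is read from it. In tumors *Hp* changed by -4.60 against MG-N (SE 0.87, adjusted p = 0.00258, limma) and by -4.09 against MG-NP (SE 0.43, adjusted p = 1.13e-04, limma).

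*C3* (ENSMUSG00000024164, chr17:57203970-57228136), the component at which all complement pathways meet, was high in every gland and low in every tumor. It had 23366, 20826 and 37208 normalized counts in MG-WT. In MG-N it had 42826, 38833, 36462 and 47704, and in MG-NP 42450, 24550, 43389 and 63692. In T-N it had 1862, 1068, 6722 and 1055, and in T-NP 1136, 2108, 1472 and 1308. The 11 glands did not overlap with the 8 tumors, and T-N replicate 3 was the highest tumor. *C3* changed by -4.41 on the log2 scale in T-N against MG-N (SE 0.53, adjusted p = 3.48e-04, limma) and by -4.81 in T-NP against MG-NP (SE 0.30, adjusted p = 1.23e-05, limma). Against MG-WT, it was 0.65 higher in MG-N (adjusted p = 0.0323, limma), under the 2-fold limit, and 0.65 higher in MG-NP, where it did not pass (adjusted p = 0.159, limma).

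Between MG-WT and the glands of tumor-bearing mice, white adipocyte transcripts differed in the same direction as *Orm1* and *Hp*. Between these glands and tumors they differed in the same direction as *Orm1*, *Hp* and *C3*. The 10 markers summed to 1805 to 33776 in T-N and 3811 to 14058 in T-NP, and all 10 were called lower in both tumor comparisons and higher in both comparisons with MG-WT. Over all genes, 35.1% (T-N) and 38.7% (T-NP) were called in the tumor comparisons, and 37% (MG-N) and 32.6% (MG-NP) against MG-WT. T-N replicate 3, which had the most adipocyte transcripts of the tumors, had the highest *Orm1*, *Hp* and *C3* of the tumors. It also had the highest fibroblast (269786), macrophage (26462), endothelial (5233), skeletal muscle (32096) and B and T cell sums (571) of the tumors. T-N replicate 2 had the fewest, 1805, with 2 of the 10 markers at 0, and the lowest *Orm1* and *Hp*. MG-WT glands had adipocyte sums within the range of the tumors, with *C3* at 20826 to 37208. *Hp* was at 901 to 3242 in these glands, against 46.4 to 1103 in T-N and 250 to 794 in T-NP. Of the 9 hepatocyte markers, which would show liver RNA, *Ttr* was at most 3.87 and *Apoa1* at most 19.4 normalized counts in any library. *Alb* was at 759 to 1484 in MG-N, at 125 to 276 in MG-NP and at 0 to 12.8 elsewhere, and the whole list summed to 13902 to 25251 in MG-N, 7267 to 47107 in MG-NP, 86.1 to 192 in MG-WT and 36.2 to 1056 in the tumors. *Cyp2e1*, a cytochrome that fat tissue also expresses, made up 46917 of the highest sum. *Ahsg*, the fetuin A gene, went the other way, with 307, 166 and 987 normalized counts in T-N replicates 2 to 4, 21.2 to 105.4 in T-NP and 2.06 to 17.8 over the MG-N and MG-NP glands. The part of adipocyte content in the *Orm1*, *Hp* and *C3* levels was not tested.

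**Figure D3:**
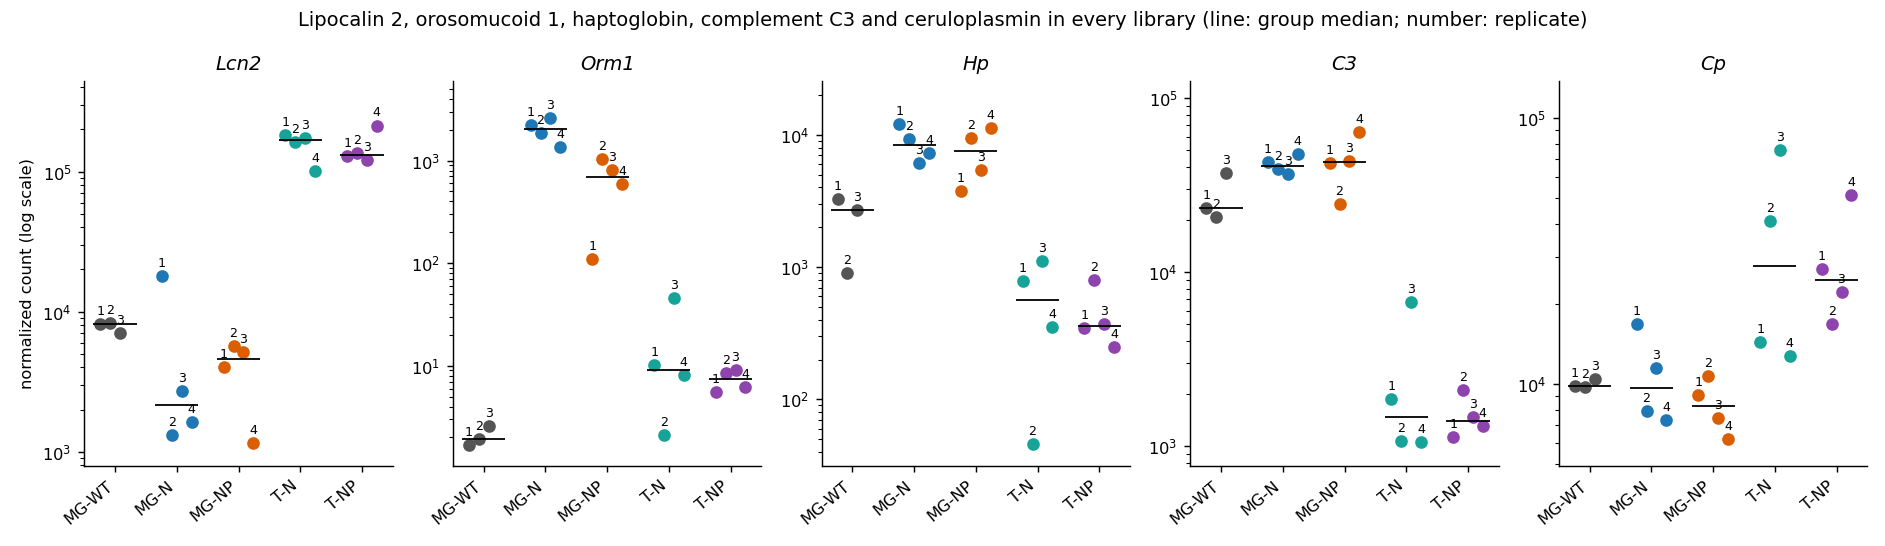
Normalized counts on a log scale for *Lcn2*, *Orm1*, *Hp*, *C3* and *Cp* in each library, with the replicate number beside each point and a line at the group median. *Lcn2* is highest in the 8 tumors, between 100264 and 213098, while *C3* is between 20826 and 63692 in glands and at or below 6722 in tumors.

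**Figure D4:**
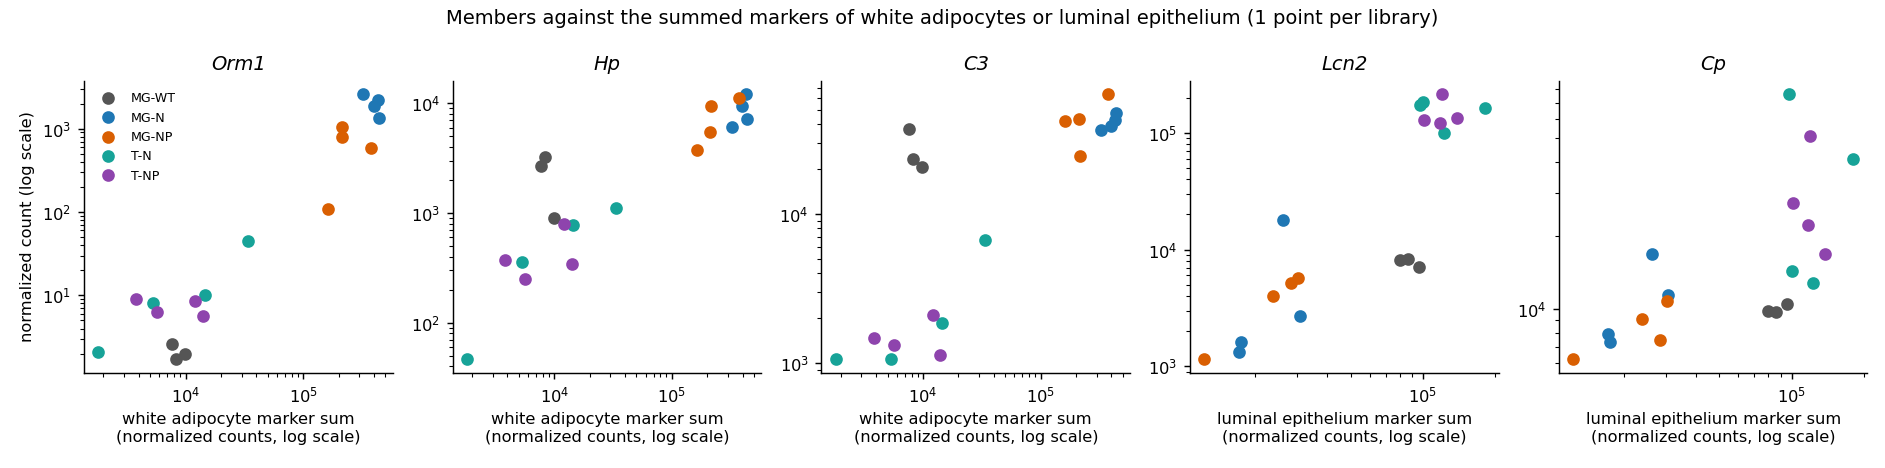
Normalized count of *Orm1*, *Hp* and *C3* against the sum of 10 white adipocyte markers, and of *Lcn2* and *Cp* against the sum of 9 luminal epithelial markers, both axes on log scales, with 1 point per library colored by group. Tumors and MG-WT glands have adipocyte sums of at most 33776 and at most 45.4 normalized counts of *Orm1*, and the MG-N and MG-NP glands have luminal sums of at most 30688.

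*Cp* (ENSMUSG00000003617, chr3:19957054-20009145) encodes ceruloplasmin, a copper-carrying ferroxidase of plasma, and rose in tumors beside *Lcn2*. Its normalized count was 9829, 9763 and 10468 in MG-WT. MG-N glands had 16864, 7907, 11463 and 7362 and MG-NP glands 9107, 10774, 7466 and 6232, around the MG-WT level. T-N tumors had 14386, 41059, 75772 and 12785, and T-NP tumors 27143, 16793, 22127 and 51319. All T-NP tumors were above all MG-NP glands, and 2 of the 4 T-N tumors overlapped with MG-N. The log2 fold change was 1.71 in T-NP against MG-NP (SE 0.34, adjusted p = 0.00293, limma) and 1.42 in T-N against MG-N, where it did not pass (SE 0.57, adjusted p = 0.0656, limma). In T-N it did pass with edgeR (1.73, adjusted p = 0.0398) and DESeq2 (1.72, adjusted p = 0.00715), with all 5 groups in 1 limma fit (adjusted p = 0.0164) and without T-N replicate 1 (1.73, adjusted p = 0.0390, limma) or T-N replicate 4 (1.79, adjusted p = 0.0325, limma). Against MG-WT the changes were 0.04 in MG-N and -0.28 in MG-NP (adjusted p = 0.908 and 0.264, limma).

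Compared per length, as median normalized counts per kb of annotated exons, *C3* led in the glands and *Lcn2* in the tumors. The length counts each base in any annotated exon, 2478 for *Saa1*, 2623 for *Lcn2* and 775 for *Orm1*. The coding sequence is 366 bases for *Saa1* and 621 for *Orm1*. Genes with long and little used annotated exons would be understated, so the order of genes is rough. In MG-N the medians were 7939 for *C3*, 5168 for *Hp*, 2631 for *Orm1*, 1012 for *Cp* and 827 for *Lcn2*. In T-N the medians were 64067 for *Lcn2*, 2898 for *Cp*, 352 for *Hp*, 285 for *C3* and 11.9 for *Orm1*. By this measure the serum amyloid genes were at the bottom in both groups, at 0.871 to 2.48 per kb in MG-N and 2.66 to 8.61 in T-N. Even in MG-NP, where they were chosen for their height, their medians were 15.5 for *Saa1*, 6.44 for *Saa2* and 25.6 for *Saa3*, against 898 for *Orm1*. All 8 genes together took up 0.149% to 0.203% of the reads of MG-WT, 0.226% to 0.345% of MG-N and 0.417% to 0.931% of T-N.

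A gene was called at an adjusted p-value under 0.05 and a change of at least 2-fold. Between MG-N and MG-WT, 5 of the 8 members reached the filter of 10 normalized counts, and 2 were called, *Orm1* and *Hp*, both higher, where 37% of all 19017 genes tested were called and 19.1% were called higher. *Orm1* reached the filter only through the MG-N glands, so its call is counted but not read. The serum amyloids did not reach the filter there. *Saa1* had 13 reads in MG-N and 3 in MG-WT, and the ratio of read rates was 7.43 with a counting interval of 2.04 to 40.7. In MG-NP against MG-WT, 7 members reached the filter and 4 were called higher, where 32.6% of 19065 genes were called and 16.4% were called higher. Of these, *Saa1* (ratio of read rates 163, counting interval 55.1 to 795) and *Saa3* passed the filter only through the MG-NP glands that were used in choosing them, so their calls are counted but not read. *Orm1* also passed it only through the MG-NP glands and is treated alike, and *Hp* is the remaining member called. The count of called members was 2 without MG-WT replicate 2, MG-WT replicate 3 or MG-NP replicate 2. It was also 2 with the skeletal muscle score as a covariate, which cannot be told apart from the group here. Both comparisons share the MG-WT glands.

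In T-N against MG-N, 6 members reached the filter and 5 were called, with *Lcn2* and *Saa3* higher and *Orm1*, *Hp* and *C3* lower, where 35.1% of genes were called. *Saa3* reached the filter only through the T-N tumors, so its log2 difference of 1.71 is given without a test, and T-N replicate 2 overlapped with MG-N. Of the other 5 members tested, 4 were called. *Saa1* and *Saa2* did not reach the filter. In T-NP against MG-NP, all 8 members reached it and 5 were called, with *Lcn2* and *Cp* higher and *Orm1*, *Hp* and *C3* lower, against a background of 38.7%. In both tumor comparisons *Orm1* reached the filter only through the glands, so its calls are counted but not read. *Saa1*, *Saa2* and *Saa3* overlapped between T-NP and MG-NP, with log2 differences of 0.12, 1.14 and -1.76. With the skeletal muscle score as a covariate these became -4.09, -3.85 and -6.14. Of the 14 muscle markers behind that score, 13 were called lower in T-NP than in MG-NP, so the score and the group cannot be told apart.

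**Figure D5:**
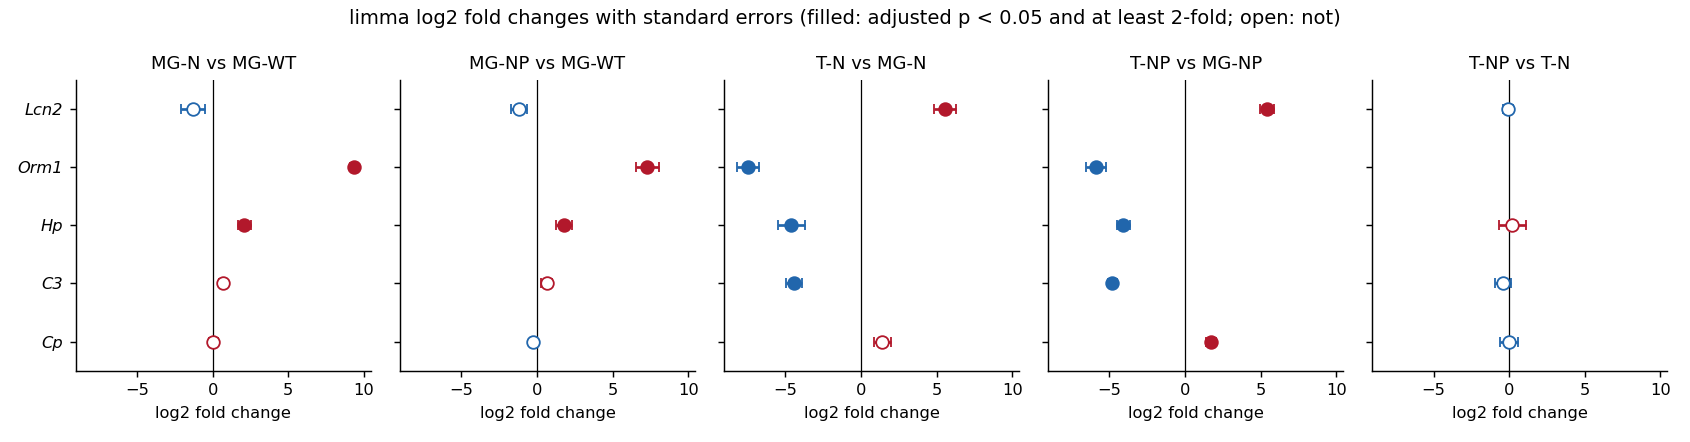
Log2 fold change from limma with its standard error for *Lcn2*, *Orm1*, *Hp*, *C3* and *Cp* in 5 comparisons, with filled points past adjusted p < 0.05 and 2-fold and open points not past it. *Orm1* goes from 9.31 in MG-N against MG-WT to -7.46 in T-N against MG-N, *Lcn2* reaches 5.56 and 5.42 in tumors, and no point in T-NP against T-N is filled, where *Orm1* did not reach the filter and has no point. In the other comparisons *Orm1* reached it only through the MG-N or MG-NP glands, so its filled points are not read as tests.

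No member passed the test between tumors with and without mutant p53 in fibroblasts. Of 7 members tested between T-NP and T-N, 0 were called by limma, 0 were below 0.05 before adjustment, and 0 were called by edgeR or DESeq2, where limma called 0.0421% of 16638 genes. The log2 fold changes were 2.31 for *Saa1* (SE 1.67), 1.76 for *Saa2* (SE 1.33), 0.56 for *Saa3* (SE 0.49), -0.05 for *Lcn2* (SE 0.32), 0.21 for *Hp* (SE 0.89), -0.40 for *C3* (SE 0.55) and -0.04 for *Cp* (SE 0.59), with adjusted p-values from 0.774 to 0.993 (limma). Leaving out each of the 8 tumors in turn gave 1.26 to 3.86 for *Saa1* and 0.86 to 2.85 for *Saa2*, with 0 calls. The highest values came without T-N replicate 1, the tumor with the most *Saa1* and *Saa2* of its group (adjusted p = 0.213 and 0.300, limma). There 2 members were below 0.05 before adjustment, a count with no share over all genes beside it, so nothing is read from it. T-NP replicate 1 likewise held most reads of both genes in its group. The standard errors of *Saa1* and *Saa2* are over 1 log2 unit, so changes of several fold could not be detected at this number of tumors. The names of the libraries of T-NP replicates 1 and 2 share an animal number, and with both averaged again 0 members were called. An interaction contrast, in which the difference between tumor and gland was compared between the genotypes, gave 0 calls among the 8 members with limma or edgeR and among the 6 for which DESeq2 gave an adjusted p, and limma called 0% of 19367 genes. At an unadjusted p-value under 0.05 there were 0 members with limma and 1 each with edgeR and DESeq2. That contrast contains the MG-NP and MG-N glands on which *Saa1* and *Saa2* were chosen.

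The wider acute-phase program did not move as a block. Of 29 other acute-phase proteins, 21 were tested in MG-N against MG-WT, with 7 called higher and 6 lower, where 37% of all genes were called. The median log2 fold change was 0.30 against 0.02 over all genes. *Serpina3m*, a serine protease inhibitor, was among those higher (57.0 against 3.42 median normalized counts). *Fgb*, the fibrinogen beta chain, and the metal-binding protein gene *Mt2* were lower, with medians of 8.35 against 183.4 and 118 against 1865. *Serpina3m* reached the filter only through the MG-N glands and *Fgb* only through the MG-WT glands, so their calls are counted but not read. From glands to tumors, 1 was higher and 7 lower of 19 in T-N, and 3 were higher and 7 lower of 19 in T-NP, with medians of -1.46 and -2.03, where 35.1% and 38.7% of all genes were called. *Lbp*, whose product presents bacterial lipopolysaccharide, was higher in both, with 2.63 (SE 0.55, adjusted p = 0.00427) and 3.82 (SE 0.37, adjusted p = 7.83e-05, limma), and its median normalized count was 6626 for T-N and 1459 for MG-N. Chosen after their values were seen, *Crp* was at most 5.75 normalized counts in any library and *Apcs* at most 0.954. *Saa4* was at 0.426 in MG-WT replicate 1 and at 0 in the other 18 libraries.

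*Il6* and *Socs3*, from the pathway known to switch these genes on, were highest in wild-type glands, where *Saa1*, *Saa2* and *Orm1* had their lowest medians. Of 24 cytokine signals and regulators tested, 15 were called lower and 1 higher in MG-N against MG-WT, with a median of -1.48 against 0.02 over all genes, and the counts were 15 and 1 in MG-NP also. Of all genes, 37% were called in MG-N and 32.6% in MG-NP, in either direction. *Il6* had 671 to 1140 normalized counts in MG-WT, 2.82 to 17.2 in MG-N and 1.29 to 11.9 in MG-NP. *Socs3*, the feedback inhibitor of STAT3, had 24061 to 30711 in MG-WT, 329 to 392 in MG-N and 244 to 649 in MG-NP. For MG-N against MG-WT, *Socs3* was called lower, at -6.20 on the log2 scale (adjusted p = 1.07e-07, limma). *Il6* reached the filter only through the MG-WT glands, so its log2 difference of -6.72 is given without a test and its call is counted but not read. *Cebpa*, whose product drives fat cell and liver genes, was the gene called higher, with 8038 to 9987 in MG-N against 1664 to 1911 in MG-WT. It fell in tumors by 4.03 on the log2 scale in T-N and by 2.19 in T-NP (adjusted p = 5.43e-05 and 5.49e-04, limma), whereas *Cebpb* rose by 2.25 and 1.91 (adjusted p = 6.88e-04 and 6.62e-04, limma). *Il1r1*, the interleukin 1 receptor, fell by 2.61 and 2.88 (adjusted p = 6.52e-04 and 8.62e-05, limma).

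Receptors and binding partners of the members were called about as often as all genes. Of 17 tested in MG-N against MG-WT, 7 were higher and 0 lower (median 0.69), where 37% of all genes were called, and in MG-NP 6 were higher and 1 lower of 17, where 32.6% were. Of 16 tested in T-N against MG-N, 0 were higher and 6 lower (median -0.81), where 35.1% of all genes were called, and in T-NP against MG-NP 1 was higher and 7 lower of 17, where 38.7% were. *Cd163*, the macrophage receptor for haptoglobin bound to hemoglobin, had 2675 to 7914 normalized counts in MG-N, 28.9 to 52.7 in MG-WT and 52.7 to 708 in T-N. Its log2 fold changes were 6.69 in MG-N against MG-WT and -4.52 in T-N against MG-N (adjusted p = 5.41e-06 and 0.00105, limma). *Slc22a17*, a receptor for lipocalin 2, was lower in MG-NP than in MG-WT (-1.36, adjusted p = 0.0120, limma), at 193 to 420 against 540 to 836 normalized counts.

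Most complement genes tested were called lower, like *C3*, in T-N against MG-N. Of 25 complement components and regulators, 23 were tested in MG-N against MG-WT, with 17 higher and 1 lower (median 1.99). Over all genes 37% were called there and 19.1% were called higher. In T-N against MG-N 23 were tested, with 0 higher and 14 lower (median -2.44, against -0.05 over all genes), where 35.1% of all genes were called. In T-NP against MG-NP, 1 was higher and 11 lower of 23, where 38.7% of all genes were called. *Cfd*, the adipocyte protease adipsin of the alternative pathway, had 15.4 to 71.3 normalized counts in MG-WT, 77524 to 122912 in MG-N, 33000 to 135309 in MG-NP and 11.6 to 2173 in T-N. *Cfi*, which inactivates the cleaved form of C3, was the complement gene called higher in T-NP against MG-NP, at 27.5 to 46.4 against 1.43 to 10.5 normalized counts. It reached the filter only through the T-NP tumors, so its log2 difference of 2.84 is given without a test. Of 13 iron and heme genes, which act beside *Lcn2*, *Cp* and *Hp*, 9 were higher and 0 lower in both MG-N and MG-NP against MG-WT, where 37% and 32.6% of all genes were called. In tumors 2 were higher and 3 lower for T-N (median -0.14) and 3 higher and 2 lower for T-NP (median -0.08), against 35.1% and 38.7% of all genes called. *Trf*, which encodes the iron carrier transferrin, rose with *Lcn2* and *Cp*, by 4.10 and 4.34 (adjusted p = 3.25e-04 and 3.96e-06, limma), to 14845 to 60116 normalized counts in T-N. *Heph*, the membrane-bound relative of *Cp*, fell by 4.44 and 1.77 (adjusted p = 0.00144 and 0.00721, limma).

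To show what varied with each member inside the groups, log2 values were centered on their group means and correlated across the 19 samples with those of 19367 genes. For *Orm1* the genes most alike were *Pnpla3* (r = 0.926), *Sncg* (r = 0.899) and *Ccdc80* (r = 0.882). For *Lcn2* they were *Aldoc* (r = 0.919), the casein gene *Csn3* (r = 0.903) and *Tc2n* (r = 0.889), for *Cp* *Vtcn1* (r = 0.935) and for *Hp* *Glb1l2* (r = 0.940). For *Saa1* they were *Atat1* (r = 0.929), *Fam160a2* and *Rgs9*, and for *Saa3* *Dok3* (r = 0.834), *Trat1* and *Fgd2*. Among the members, the highest value after *Saa1* with *Saa2* was *Orm1* with *Hp* (r = 0.699), then *Hp* with *C3* (r = 0.609). *Saa3* with *Saa2* was 0.422 and was -0.00542 without MG-NP replicate 3, whereas *Orm1* with *Hp* was then 0.739. The samples behind these values share library depth and tissue makeup, and highest values out of many genes are high by selection.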

How the data were processed

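RNA of 19 bulk samples was sequenced by the authors as paired reads and aligned to GRCm38 with TopHat2 2.1.1 and Bowtie2. The counting tool, annotation and strand setting are not given in the sources used here. The deposited table holds read counts that the authors normalized with DESeq2, a signal on a linear scale for 46078 genes. Dividing by the step of each library gave back whole reads within a tolerance of 0.05. Symbols and positions come from GENCODE vM21, which matched 97.97% of genes.

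Groups were compared with limma 3.58.1 (R 4.3.3) on log2(normalized count + 1), so that changes of low genes are understated. Genes needed at least 10 normalized counts in as many samples as the smaller group holds. P-values were adjusted by Benjamini-Hochberg over all genes tested, and genes were called at adjusted p under 0.05 and 2-fold. Alternatives were edgeR 4.0.16, DESeq2 1.42.0, other pseudocounts, filters, scaling and samples. The scripts were tested on simulated data. The members, gene lists and rule for named genes (the 2 called genes of each list with the largest change in each direction) were chosen with earlier results of these data known. Where the labels name no separate animals, p-values measure the spread between these samples only. Shares of reads have Wilson intervals at 95%.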

Additional observations from a re-analysis of the deposited data

Results flagged for a closer look

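In each of 32 groups of 4 samples, the gap of the highest or lowest sample to the nearest other was compared with the range of the group, and 8 values lay beyond Dixon's critical value at 95%. For normally distributed values, chance gives such a value in about 1 in 20 groups. That rate does not hold for these counts, which were taken on the linear scale, where values are skewed upward. Genes of the same library are also not independent, so the 8 flags are not read as more than chance gives. All 8 were the highest of their group.

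Of these, 5 were serum amyloid values. In T-N replicate 1 the normalized count was 223 for *Saa1* and 107 for *Saa2*, and in T-NP replicate 1 it was 240 for *Saa2*. In MG-NP replicate 3 it was 154 for *Saa2* and 3287 for *Saa3*. The other *Saa3* values of MG-NP were 11.4 to 72.3.

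*Lcn2* was at 17915 in MG-N replicate 1, with 1319 to 2720 in the other glands of that group, and at 213098 in T-NP replicate 4. *Ltf*, expressed by mammary epithelium and neutrophils, was at 26762 normalized counts in MG-N replicate 1. Of the other neutrophil markers, *Ly6g* was at 0 there, *Csf3r* at 220 and *Cxcr2* at 192. The part of *Ltf*-expressing cells in the *Lcn2* value was not tested. *C3* was at 6722 in T-N replicate 3, the tumor with the most adipocyte and fibroblast transcripts of its group, with marker sums of 33776 and 269786. The macrophage, endothelial, skeletal muscle and B and T cell sums were also the highest of its group. The part of these cell types in the *C3* value was not tested.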

How the results depend on the processing

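The number of called members in MG-NP against MG-WT, *Saa1* and *Saa3* included, was 4 and became 2 with the skeletal muscle score as a covariate and 2 to 3 when leaving out single libraries, and in T-NP against MG-NP it went from 5 to 8 with that score. In MG-NP against MG-WT the muscle score turned *Lcn2* to 0.0045 and left *Orm1* at 7.29, no longer called. Neither there nor in T-NP against MG-NP can that score be told apart from the group. In T-NP against MG-NP, *Saa1* was -0.34 with T-NP replicates 1 and 2 averaged and -4.09 with the muscle score, *Saa2* was -3.85 with the muscle score, and *Saa3* was -4.61 with edgeR. In MG-NP against MG-N, *Lcn2* was -0.55 with edgeR, and *C3* was 0.10 with edgeR, 0.0701 with DESeq2 and 0.22 with the muscle score. In T-NP against T-N, *Hp* was -0.39 with edgeR and -0.37 with DESeq2, and *Cp* was 0.0873 with both T-NP tumors averaged. In the interaction, *Lcn2* was 0.52 with edgeR and 0.0602 with the muscle score, *Hp* was -0.14 with edgeR and -0.16 with DESeq2, and *C3* was 0.17 with the muscle score. Leaving out single libraries gave ranges across 0 for *Cp* in MG-N against MG-WT (-0.20 to 0.20), for *Saa1* in T-NP against MG-NP (-0.70 to 0.90), and for *C3* (-0.21 to 0.25) and *Lcn2* (-0.33 to 0.92) in MG-NP against MG-N. In T-NP against T-N this held for *Lcn2* (-0.25 to 0.0396), *Hp* (-0.75 to 0.76), *Cp* (-0.40 to 0.45) and *C3* (-0.70 to 0.19). In the interaction it held for *Lcn2* (-0.97 to 0.28), *Saa2* (-1.95 to 0.11), *Saa1* (-1.96 to 0.64), *Cp* (-0.0792 to 0.78), *Hp* (-0.45 to 1.06) and *C3* (-0.69 to 0.20). The cause was not tested. Over all genes, the count called in MG-NP against MG-N was 0, but 527 with DESeq2, 16 with all groups in 1 fit and 318 without MG-NP replicate 3. In T-NP against T-N it was 7, but 86 with DESeq2, 26 with all groups in 1 fit, 52 without T-N replicate 1 and 0 with edgeR, a pseudocount of 0.5, a filter at a mean of 50, the averaged tumors or any other library left out. In the interaction it was 0, but 330 with DESeq2, 194 without MG-NP replicate 3, 2 without MG-NP replicate 4 and 20 without T-N replicate 1. The muscle score gave 2062 in place of 6217 in MG-NP against MG-WT and 4427 in place of 6925 in T-NP against MG-NP, and no fold threshold gave 11241 in place of 7037 in MG-N against MG-WT. DESeq2 gave no adjusted p for 7 member results, *Saa3* and *Lcn2* among them. Same-numbered samples did not deviate together (correlations of -0.28 to 0.32 in MG-NP against MG-N), so the numbers do not pair samples. With the replicate block, *Hp* in MG-NP against MG-WT was 1.54 (adjusted p = 0.124, limma) and 0 genes were called in T-NP against T-N, with 1 member below 0.05 before adjustment. *Saa1* and *Saa2* had 0 to 5 reads per library in MG-WT and MG-N, which limits any ratio to these groups.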

Other observations

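Neutrophil-type transcripts and the serum amyloids peaked in different MG-NP glands. *Ngp* was at 1154 and *Camp* at 455 normalized counts in MG-NP replicate 1, against 3.25 and 2.17 in replicate 3, the gland with the most *Saa1*, *Saa2* and *Saa3*. *Ly6g* was at 76.3 in replicate 1 and at 0 in replicate 3. Brown adipocyte markers reached 84066 in MG-NP replicate 4, the gland with the highest *C3* (63692) and *Hp* (11154) and the lowest *Saa1* (9.04) and *Lcn2* (1148) of its group. These are values of single glands.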
